A study of Mus musculus with 59 samples.

Results

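The heat shock chaperone and protein stress genes described here are 34 mouse genes, of 54232 genes counted, in bulk RNA sequencing libraries from 5 brain regions of mice that model spinocerebellar ataxia type 1 (SCA1). The 34 genes were chosen by name, with earlier results of these data known, and all of them had enough counts to be tested in every region. Each library is 1 region of 1 mouse, and 59 libraries of 12 mice aged 10 weeks on the C57BL/6 strain were compared. There were 4 mice of each genotype, which are WT, Atxn1 154Q/2Q (154Q hereafter), and Atxn1 154Q[V591A;S602D]/2Q (154Q-AXH hereafter). Both mutant genotypes carry 1 knock-in Atxn1 allele with an expanded CAG repeat, made in the germline and expressed from the endogenous locus, beside 1 allele with a normal repeat. In 154Q-AXH mice, the expanded allele also carries 2 substitutions that prevent ATXN1 from binding the transcriptional repressor CIC. The comparisons ask which genes change with the expanded repeat, and which changes are left when the expanded protein cannot bind CIC. Every group had 4 libraries, apart from the 154Q-AXH brainstem with 3. Mice are named by genotype and number, and values of single mice are given in the order of their numbers, from WT-70 to WT-221, from 154Q-69 to 154Q-76, and from 154Q-AXH-207 to 154Q-AXH-218.

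Chaperones are proteins that help other proteins fold, keep them from clumping, and pass those that cannot fold to the proteasome or to autophagy. When unfolded protein gathers in the cytosol, the transcription factor HSF1 binds heat shock elements and raises the inducible chaperones, whereas unfolded protein in the endoplasmic reticulum (ER) acts through ATF6, IRE1 with XBP1, and PERK with ATF4. Ataxin-1 with a long glutamine tract is known to form nuclear inclusions in SCA1 that recruit chaperones and proteasome subunits.

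Promoter sequences of the members that the results turn on are shown first. RefSeq windows on GRCm38.p6, with 250 bases before and 50 after an annotated gene start, were held for 28 of the 34 genes. Hspa1a and Hspa1b, which encode nearly identical inducible HSP70 proteins, are neighbors on chromosome 17, and 247 of the 250 bases before their starts (98.8%) were identical. The capitals mark 2 units of the heat shock element (GAA and TTC in alternation, with 2 bases between them). Such a pair of units, on either strand, was found in 15.1% of 32851 promoter windows and in the windows of 13 of the 28 members.

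Hspa1a, chr17:34972157-34972406, minus strand: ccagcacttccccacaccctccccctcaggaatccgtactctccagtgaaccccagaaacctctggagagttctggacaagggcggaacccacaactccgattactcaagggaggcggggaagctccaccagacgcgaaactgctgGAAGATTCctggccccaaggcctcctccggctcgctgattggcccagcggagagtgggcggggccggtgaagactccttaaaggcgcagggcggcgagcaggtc
Hspa1b, chr17:34959239-34959488, minus strand: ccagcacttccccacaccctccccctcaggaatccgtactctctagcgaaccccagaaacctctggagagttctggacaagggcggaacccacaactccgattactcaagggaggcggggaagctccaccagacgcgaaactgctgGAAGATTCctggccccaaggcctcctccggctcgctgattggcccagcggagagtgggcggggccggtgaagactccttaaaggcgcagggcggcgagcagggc

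A run of 3 or more such units was found in 0.603% of all windows and in those of 5 members, Hsph1, Chordc1, Dnajb6, Hspd1, and Hspe1. Hspd1 and Hspe1, the mitochondrial chaperonin and its lid, lie head to head on chromosome 1 and share the run shown here in capitals on the strand of Hspd1. The ER chaperones Hspa5 and Hsp90b1 were the 2 members with an ER stress response element (CCAAT and CCACG with 9 bases between them, either strand), which 0.119% of all windows held. It is in capitals below, once before Hspa5 and at 2 places before Hsp90b1. The CIC octamers TGAATGAA and TGAATGGA were in 2.47% of all windows and in 0 of the members' windows. These matches describe the letters in the windows and say nothing about binding.

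Hspd1, chr1:55088034-55088101, minus strand: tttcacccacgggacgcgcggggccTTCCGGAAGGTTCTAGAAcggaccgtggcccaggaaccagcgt
Hspa5, chr2:34772000-34772068, plus strand: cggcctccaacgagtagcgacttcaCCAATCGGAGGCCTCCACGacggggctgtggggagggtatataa
Hsp90b1, chr10:86705508-86705681, minus strand: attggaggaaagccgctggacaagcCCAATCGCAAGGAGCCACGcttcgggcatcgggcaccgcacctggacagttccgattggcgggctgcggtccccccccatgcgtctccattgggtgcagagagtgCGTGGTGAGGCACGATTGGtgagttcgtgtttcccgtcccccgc

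The cerebellar, brainstem, and hippocampal libraries held more counted read pairs (64416717 to 112343574 per library) than the striatal and cortical ones (28058359 to 54719126). Several libraries stood apart. The hippocampal library of 154Q-76 held 5 brainstem marker genes at a summed 324 CPM (the count scaled to the size of the library), against 0 to 2 CPM in the other hippocampal libraries, and both Xist and the Y-linked gene Ddx3y. The cortical library of WT-221 held Xist without Ddx3y, which sets it apart from that mouse's other regions, and the file names and labels of the cortical libraries of 154Q-76 and 154Q-AXH-207 are exchanged. Every library of 154Q-75 and 154Q-AXH-217 also held Xist without Ddx3y. In the cerebellum, Xist was at 10.2 and 10.0 and Ddx3y at -1.40 and -0.80 log2 CPM in these mice. All other WT libraries held Ddx3y with little Xist, so sex was not balanced between WT and the mutants. The fits held no term for sex. In the striatum, 5 striatal markers summed to 996 to 3346 CPM in WT, 347 to 653 CPM in 154Q, and 314 to 1887 CPM in 154Q-AXH libraries. Cortical markers (5 genes) in the striatal libraries summed to 242 to 677 CPM in WT, against 670 to 831 CPM in the WT cortex. Their median level in the striatum was 25.2% of the WT cortical mean in WT-220 and 23.0% in 154Q-AXH-217. It was 58.7% to 88.7% in the other striatal libraries. The part of cortical tissue in the striatal changes was not tested. Choroid plexus markers ranged from 32 to 5577 CPM over the 59 libraries. The mouse numbers fall into a lower and a higher series, with all 154Q mice in the lower (69 to 77), all 154Q-AXH mice in the higher (from 154Q-AXH-207 on), and 2 WT mice in each. What the series stand for is not given in the labels, so each call of a member is also given against the WT mice of its own series, which leaves 2 WT mice in a fit. Of the 30 calls described below, 10 held against those mice and 14 with the series as a covariate. In bulk tissue, fewer cells of a type and less RNA per cell cannot be told apart.

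Levels of different genes were compared in WT as CPM per kilobase of exon (FPKM). The cytosolic HSP90 and constitutive HSP70 genes stood highest. Hsp90ab1, the constitutive HSP90, ranged from 412 FPKM in the cerebellum to 650 FPKM in the hippocampus. Hspa8, the constitutive HSP70, ranged from 317 to 416 FPKM, and Hsp90aa1, the inducible HSP90, from 265 to 435 FPKM. The inducible HSP70 genes were low, at 0.809 to 2.33 FPKM for Hspa1a and 1.56 to 4.19 FPKM for Hspa1b. In the hippocampus, striatum, and cortex, Bag3 lay below Hspa1b. Hsf1 itself was at 3.57 to 5.20 FPKM.

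**Figure D1:**
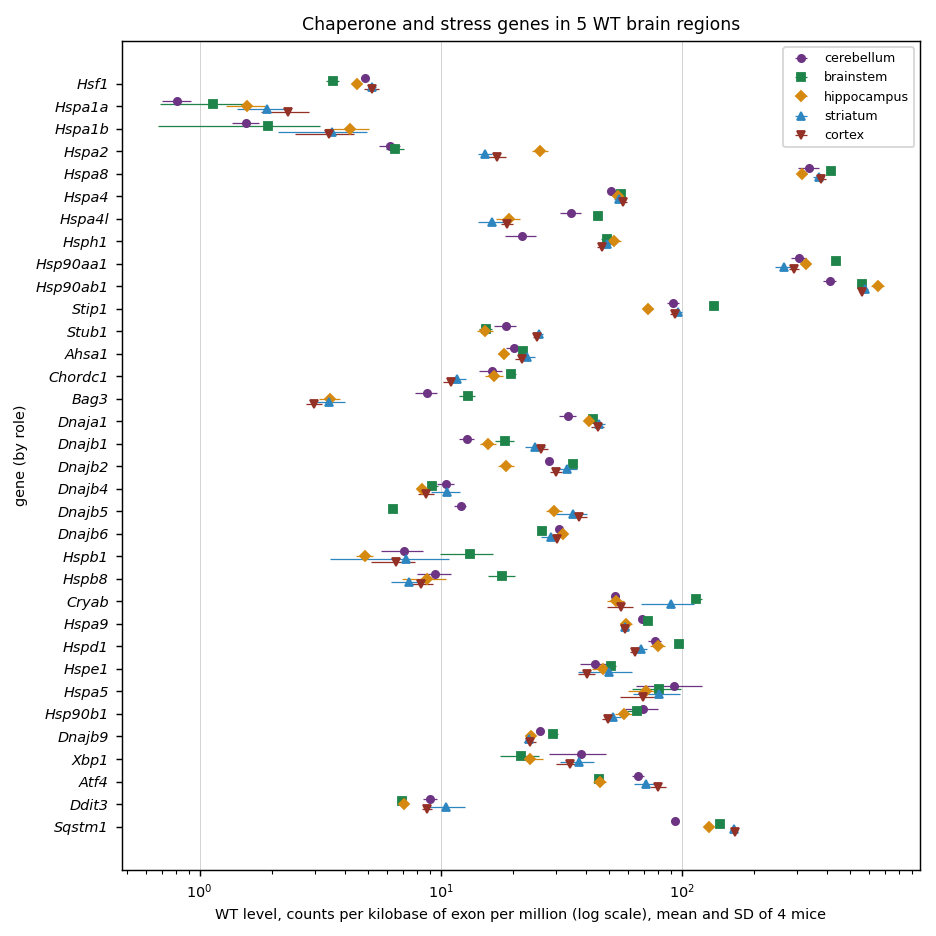
Mean level and SD of each gene in 4 WT mice per region, in FPKM on a log axis, with 1 marker shape per region. Hsp90ab1, Hspa8 and Hsp90aa1 lie highest, Hspa1a lies lowest, and the regions lie farthest apart for Dnajb5, Bag3 and Hspa2.

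Of the 34 members, 32 differed between WT regions (edgeR quasi-likelihood F test, Benjamini-Hochberg adjusted), where 90.3% of all genes tested did. The exceptions were the HSP110 gene Hspa4 (adjusted p = 0.0804) and Hspa5 (adjusted p = 0.0542). The brainstem had the highest mean of 14 members, among them the 3 small heat shock proteins and the 3 mitochondrial chaperones, and 11 members differed by more than 2-fold between their highest and lowest region. Dnajb5, a J-domain cochaperone of HSP70, ranged from 6.36 FPKM in the brainstem and 12.1 FPKM in the cerebellum to between 29.6 and 37.6 FPKM in the hippocampus, striatum, and cortex. Bag3, a nucleotide exchange factor that directs HSP70 clients to autophagy, showed the opposite order, with 12.9 FPKM in the brainstem and 2.99 FPKM in the cortex. Hspa2, an HSP70 gene best known from the testis, stood 4.20-fold higher in the hippocampus than in the cerebellum.

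In the comparisons with WT, most members did not pass the test, and those that passed were mainly lower in the mutants. In 154Q mice, 6 of 34 members were called in the cerebellum, where 5.22% of all genes tested were called. Of these, 1 was higher, where 2.1% of all genes were called higher, and 5 were lower, where 3.12% were. In the hippocampus, 5 members were called, all lower, against 5.91% of all genes called, 2.52% higher and 3.39% lower. In the striatum, 3 were called, all lower, against 5.69% of all genes, 1.92% higher and 3.77% lower. In the cortex, 5 were called, 1 higher and 4 lower, against 11.1% of all genes, 4.4% higher and 6.71% lower. In the brainstem, 0 members were called by edgeR, where 0.538% of all genes were, and 5 (14.7%) had an unadjusted p below 0.05, against 10.9% of all genes. DESeq2 called 2 members there, Hspa1b and Cryab, and 2.22% of all genes.

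The 154Q-AXH mice were compared with the same WT libraries, so the sets of calls in the mutant genotypes are not independent of each other. In the cerebellum, 2 members were called, both lower, against 2.21% of all genes, 1.08% higher and 1.13% lower. In the hippocampus, 3 were called, all lower, against 1.3% of all genes, 0.629% higher and 0.671% lower. In the striatum, 1 was called, lower, against 1.35% of all genes, 0.277% higher and 1.08% lower. In the cortex, 5 were called, 1 higher and 4 lower, against 7.15% of all genes, 2.39% higher and 4.76% lower. In the brainstem, edgeR called 0 members and 0.0138% of all genes, and 4 members (11.8%) had an unadjusted p below 0.05, against 6.73% of all genes. DESeq2 called 0 members and 0.405% of all genes.

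These 30 calls fell on 11 genes. As a median of absolute log2 fold changes, the 34 members moved less than all genes tested in each of the 10 comparisons, for example 0.06 against 0.10 in the 154Q cerebellum. Expression level was not matched between the members and all genes, in this measure or the next. The share of members with an unadjusted p below 0.05 was larger than that of all genes in the same 10 comparisons, for example 35.3% against 17.96% in the 154Q cerebellum and 35.3% against 14.9% in the 154Q-AXH hippocampus. Since the members were chosen with earlier results known, these shares describe them and do not test the list. From 20 to 29 of the 34 members lay below WT in a comparison, with a median log2 fold change from -0.11 to -0.04. Over all genes tested, the median lay between -0.01 and 0.02. The 10 comparisons draw on the same WT mice, so they do not repeat each other independently.

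**Figure D2:**
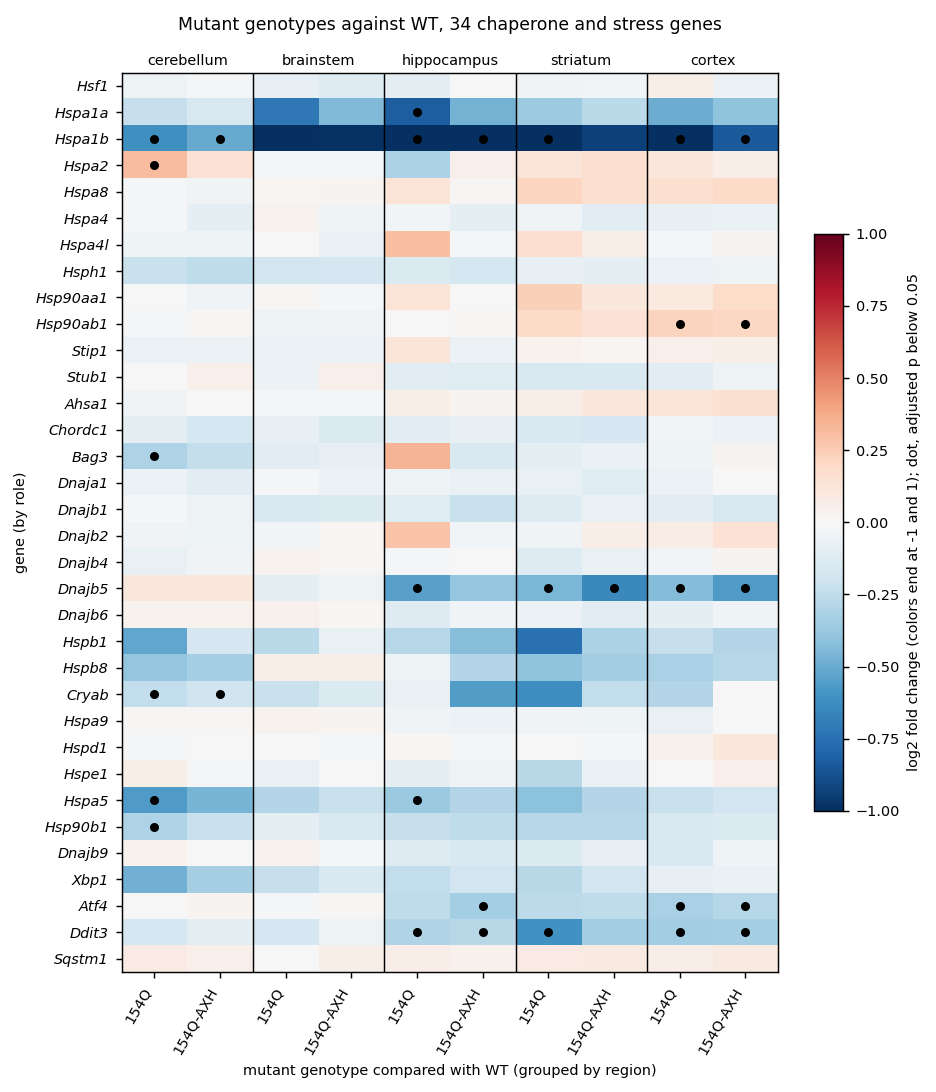
Log2 fold change of each gene (rows, by role) in each mutant genotype against WT, grouped by region (columns). Colors end at -1 and 1, and a dot marks an adjusted p below 0.05. The dots gather on Hspa1b, Dnajb5, Atf4 and Ddit3 in the forebrain, and on Hspa1b, Cryab, Bag3, Hspa2, Hspa5 and Hsp90b1 in the cerebellum.

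Hsf1, the transcription factor of the heat shock response, was not called in any comparison. Its library values overlapped between genotypes in every region, from 22.2 CPM in the lowest brainstem library to 39.8 CPM in the highest cortical one. Its log2 fold change against WT lay between -0.13 (SE 0.07, 154Q-AXH brainstem) and 0.06 (SE 0.07, 154Q cortex).

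Hspa1b, an inducible HSP70, was the member with the largest change, and it was lower in both mutants. In the hippocampus, the WT mice had 9.14, 10.6, 13.4, and 14.4 CPM. The 154Q mice had 4.07, 4.42, 4.69, and 3.002 CPM. The 154Q-AXH mice had 5.42, 6.42, 5.96, and 6.00 CPM. All 8 mutant libraries lay below every WT library, with the 154Q-AXH mice between the others. Hspa1b fell by 1.56 on the log2 scale in 154Q mice (SE 0.16, adjusted p = 0.000325) and by 1.00 in 154Q-AXH mice (SE 0.16, adjusted p = 0.00963). Without the mixed library of 154Q-76, it fell by 1.44 (adjusted p = 0.000252).

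Hspa1b stood at 65.3% of the WT mean in the cerebellum of 154Q mice, 44.8% in the cortex, and 33.9% in the striatum. All 4 mutant libraries lay below the lowest WT library each time. On the log2 scale, it fell by 0.61 (SE 0.12, adjusted p = 0.00563), 1.16 (SE 0.19, adjusted p = 0.00125), and 1.56 (SE 0.26, adjusted p = 0.0048), respectively. In 154Q-AXH mice it fell by 0.51 in the cerebellum (SE 0.11, adjusted p = 0.034) and by 0.84 in the cortex (SE 0.19, adjusted p = 0.013). The cerebellar call of Hspa1b in these mice was lost in 7 of the 12 fits that left out 1 library, with adjusted p from 0.0597 to 0.128 (without WT-70, WT-220, WT-221, or any 1 of the 4 154Q-AXH mice). Its striatal log2 fold change there, -0.94 (SE 0.25), had an adjusted p of 0.108. Leaving out the pair of cortical libraries with exchanged names gave -0.70 in the cortex of these mice (adjusted p = 0.0605).

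In the brainstem, the WT mice themselves split. WT-70 and WT-77 had 2.75 and 2.04 CPM of Hspa1b, whereas WT-220 and WT-221 had 8.30 and 8.80 CPM. The 154Q libraries had 1.28 to 1.96 CPM and the 154Q-AXH libraries 1.91 to 3.15 CPM. The log2 fold changes of Hspa1b, -1.64 (SE 0.43, adjusted p = 0.149) and -0.99 (SE 0.45, adjusted p = 0.733), were not called. Against the WT mice of the same number series, they were -0.47 in 154Q (adjusted p = 0.606) and -1.68 in 154Q-AXH mice (adjusted p = 0.0467). WT mice of the higher series had between 1.11 and 3.57 times the Hspa1b of the lower series over the 5 regions.

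Against WT mice of the same series, Hspa1b lay below WT in both mutants in all 5 regions. In 154Q mice, the log2 fold change was -0.54 in the cerebellum (adjusted p = 0.131), -1.29 in the hippocampus (adjusted p = 0.0471), -1.07 in the striatum (adjusted p = 0.0182), and -0.85 in the cortex (adjusted p = 0.0616). In 154Q-AXH mice, it was -0.58 (adjusted p = 0.0121), -1.22 (adjusted p = 0.00918), -1.29 (adjusted p = 0.18), and -1.08 (adjusted p = 0.00385) in the same order. With the series as a covariate, the striatal call in 154Q mice was lost (-1.08, adjusted p = 0.0506).

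Hspa1a, the neighboring copy, was called once, in the hippocampus of 154Q mice. There, the WT mice had 4.28, 3.77, 5.64, and 5.23 CPM, and the 154Q mice had 2.32, 2.56, 2.98, and 2.74 CPM. The 154Q-AXH mice, with 2.97, 4.03, 3.29, and 3.27 CPM, overlapped with WT through 1 library. Hspa1a fell by 0.83 on the log2 scale (SE 0.15, adjusted p = 0.00744) in 154Q mice. The call was lost against WT mice of the same series (-0.60, adjusted p = 0.183). Elsewhere Hspa1a ranged from 1.79 to 2.86 CPM in the cerebellum, 1.72 to 4.62 CPM in the brainstem, 3.21 to 7.56 CPM in the striatum, and 3.71 to 8.55 CPM in the cortex. All 10 log2 fold changes of Hspa1a against WT were below 0, from -0.83 to -0.16.

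Counts of Hspa1a and Hspa1b rest on the read pairs that map to 1 copy only, since pairs that fit both were left uncounted, and 19.01% of the exon of Hspa1a overlaps a gene on the other strand. The counts per library were 103 to 1130 for Hspa1b and 104 to 412 for Hspa1a. The share of Hspa1b in their sum was 71.4% on average in the WT hippocampus, 60.1% in 154Q, and 63.8% in 154Q-AXH mice. It was 62.3%, 43.7%, and 52.9% in the striatum, so the pair did not fall in proportion.

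**Figure D3:**
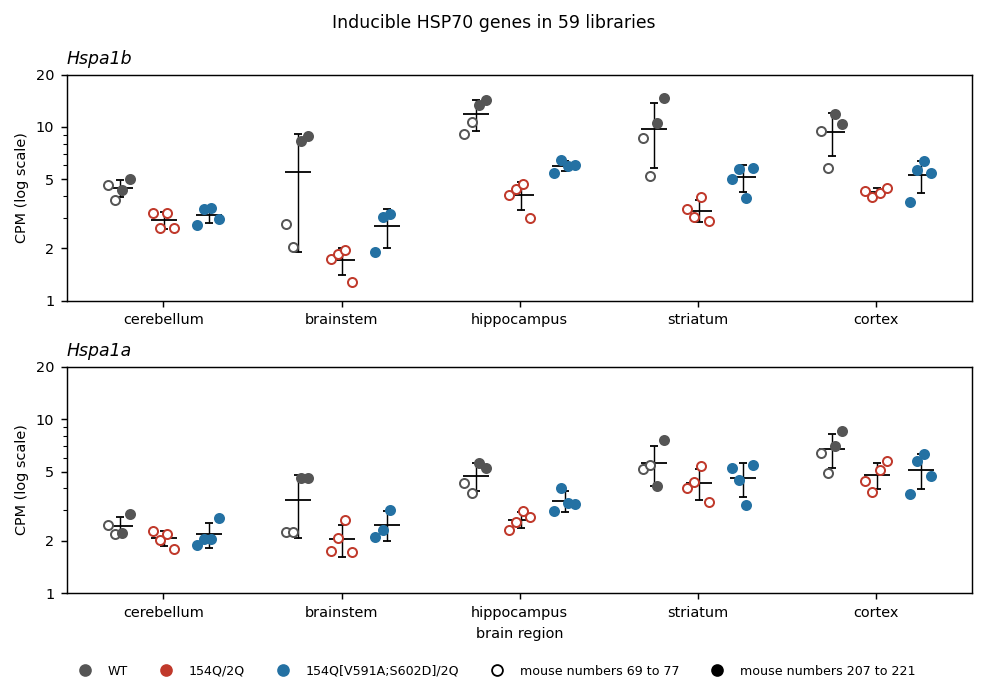
CPM of Hspa1b and Hspa1a on a log axis in each of 59 libraries, by region and genotype, with a bar at the mean and its SD. Open points are mice of the lower number series and filled points those of the higher. Every 154Q library lies below every WT library for Hspa1b in all 5 regions, and in the brainstem WT-220 and WT-221 lie above WT-70 and WT-77.

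Immediate early genes, which rise with neuronal activity, had lower median sums in the same forebrain regions. The 11 genes of that list summed to 471 to 914 CPM in the WT hippocampus, 299 to 457 CPM in 154Q, and 280 to 381 CPM in 154Q-AXH mice. In the striatum the ranges were 946 to 1352, 574 to 877, and 453 to 638 CPM. In the cortex they were 1258 to 1680, 789 to 1342, and 580 to 1289 CPM, so both mutants overlapped with WT. In the cerebellum, where Hspa1b was also lower, the ranges of 170 to 265, 209.1 to 272, and 192 to 244 CPM overlapped. Astrocyte markers (6 genes) summed to 2769 to 2927 CPM in the WT cortex, 2160 to 2591 CPM in 154Q, and 2322 to 2549 CPM in 154Q-AXH mice. Cortical markers in the cortex summed to 670 to 831 CPM in WT, 502 to 588 in 154Q, and 490 to 560 in 154Q-AXH mice. Hippocampal markers (5 genes) in the hippocampus summed to 587 to 865, 389 to 583, and 523 to 887 CPM in the same order. In 154Q mice neither list overlapped with WT, whereas the hippocampal markers in 154Q-AXH mice did. The part of these lists in the changes of Hspa1a, Hspa1b, Hspa5, Hsp90ab1, Dnajb5, Atf4, or Ddit3 was not tested.

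Among the other HSP70 and HSP90 genes, 2 were called, both higher in a mutant. Hspa2 rose in the cerebellum of 154Q mice. The WT mice had 17.6, 18.7, 14.4, and 15.7 CPM, and the 154Q mice had 20.9, 22.3, 19.3, and 19.5 CPM. All 4 lay above WT, whereas the 154Q-AXH mice, with 17.6, 18.6, 17.8, and 19.4 CPM, overlapped with both groups. The log2 fold change of Hspa2 was 0.31 (SE 0.08, adjusted p = 0.0319) in 154Q and 0.14 (SE 0.08, adjusted p = 0.406) in 154Q-AXH mice. The call of Hspa2 was lost without WT-220, WT-221, 154Q-69, or 154Q-71 (adjusted p from 0.0769 to 0.1). Against WT mice of the same series, Hspa2 gave 0.17 (adjusted p = 0.36) and 0.29 (adjusted p = 0.0172), respectively.

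Hsp90ab1, which folds kinases and steroid receptors, rose in the cortex of both mutants. It had 1618, 1675, 1667, and 1570 CPM in WT mice, 2002, 1780, 2027, and 1829 CPM in 154Q mice, and 1972, 1847, 1943, and 1794 CPM in 154Q-AXH mice. All 8 mutant libraries lay above WT. The log2 fold change of Hsp90ab1 was 0.23 (SE 0.06, adjusted p = 0.0157) in 154Q and 0.21 (SE 0.06, adjusted p = 0.0304) in 154Q-AXH mice. Without the cortical library of WT-221, Hsp90ab1 was at 0.21 (adjusted p = 0.0539) and 0.19 (adjusted p = 0.0989). In 154Q-AXH mice, the call of Hsp90ab1 was lost in 6 of the 12 fits without 1 library (also without WT-70, WT-220, 154Q-AXH-207, 154Q-AXH-209, or 154Q-AXH-217, with adjusted p from 0.0575 to 0.0996), and with the cortical pair left out (adjusted p = 0.115). Both calls of Hsp90ab1 were lost against WT mice of the same series, at 0.21 (adjusted p = 0.344) and 0.22 (adjusted p = 0.05004), as they were with the series as a covariate (adjusted p = 0.121 and 0.131). Hspa8 and Hsp90aa1 were not called in any comparison, with log2 fold changes from -0.03 to 0.22 and from -0.03 to 0.24.

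The 3 HSP110 exchange factors, Hspa4, Hspa4l, and Hsph1, were not called. Hsph1, which carries a heat shock element and is inducible, lay below WT in all 10 comparisons, with log2 fold changes from -0.25 to -0.05. Of the 5 cochaperones of HSP70 and HSP90, Bag3 was called. The other 4 (Stip1, which links HSP70 to HSP90, the ubiquitin ligase Stub1, the HSP90 activator Ahsa1, and Chordc1) lay between -0.17 and 0.15.

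Bag3 fell in the cerebellum of 154Q mice, where it had 17.9, 18.5, 19.1, and 17.8 CPM, against 22.5, 20.7, 21.9, and 25.8 CPM in WT mice. The 154Q-AXH mice had 17.7, 18.4, 20.4, and 20.7 CPM, so that all 8 mutant libraries lay below WT, 1 of them by a narrow margin. Bag3 fell by 0.31 on the log2 scale in 154Q mice (SE 0.07, adjusted p = 0.018), and its log2 fold change was -0.24 in 154Q-AXH mice (SE 0.07, adjusted p = 0.102). The call of Bag3 was lost without WT-221, 154Q-69, or 154Q-76 (adjusted p from 0.0502 to 0.0572). It was also lost with the series as a covariate (-0.23, adjusted p = 0.117) and against WT mice of the same series (-0.24, adjusted p = 0.144). In the hippocampus, Bag3 was higher in 154Q-76 (19.985 CPM) than in the other 11 libraries (6.29 to 10.3 CPM). Its log2 fold change there was 0.34 with that library and -0.10 without it.

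Of the 6 J-domain proteins, which hand clients to HSP70, Dnajb5 was called, and only in the forebrain. In the cortex, WT mice had 221.05, 226, 229, and 194 CPM of Dnajb5. The 154Q mice had 154, 189, 150, and 153 CPM, and the 154Q-AXH mice had 165, 125, 149, and 150 CPM. All 8 mutant libraries lay below WT. Dnajb5 fell by 0.43 on the log2 scale (SE 0.09, adjusted p = 0.00477) and by 0.56 (SE 0.09, adjusted p = 0.00101), respectively, and both calls held in each fit that left out a library and under the other settings tried. With WT mice of the same series, Dnajb5 was at -0.47 (adjusted p = 0.0447) and -0.52 (adjusted p = 0.011).

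In the striatum, Dnajb5 had 174 to 248 CPM in WT, 143 to 167 CPM in 154Q, and 123 to 150 CPM in 154Q-AXH mice, again without overlap. Dnajb5 fell there by 0.46 (SE 0.11, adjusted p = 0.0248) and by 0.65 on the log2 scale (SE 0.11, adjusted p = 0.0106). In the hippocampus, it fell by 0.54 in 154Q mice (SE 0.12, adjusted p = 0.0223) and by 0.43 without 154Q-76 (adjusted p = 0.0132). The hippocampal call of Dnajb5 was lost without WT-220 or WT-221 (adjusted p = 0.0514 and 0.057), and its striatal call in 154Q mice without WT-77, WT-221, 154Q-69, 154Q-75, or 154Q-76 (adjusted p from 0.0575 to 0.075). Against WT mice of the same series, Dnajb5 in the hippocampus of 154Q mice was at -0.51 (adjusted p = 0.259, and 0.0942 with the covariate). In the striatum it was at -0.42 in 154Q mice (adjusted p = 0.0147, and 0.176 with the covariate) and at -0.67 in 154Q-AXH mice (adjusted p = 0.391, and 0.0371 with the covariate), where a fit of the 2 genotypes also lost the call. In 154Q-AXH mice the hippocampal log2 fold change was -0.39 (SE 0.12, adjusted p = 0.145). In the cerebellum, Dnajb5 lay above WT at 0.12 (SE 0.04, adjusted p = 0.129) and 0.10 (SE 0.04, adjusted p = 0.224), and in the brainstem at -0.09 and -0.05.

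The difference between regions was tested directly. The change of Dnajb5 differed between regions in 154Q mice (edgeR interaction test, adjusted p = 0.0014) and in 154Q-AXH mice (adjusted p = 0.000718). In 154Q mice, the interaction was called for 3 members, where 6.65% of all genes were called. The others were Hspa2 (adjusted p = 0.0184), which lay above WT in the cerebellum and at -0.31 in the hippocampus, and Hsp90ab1 (adjusted p = 0.00775). Without the 4 libraries in doubt, the call of Hspa2 was lost (adjusted p = 0.0581). It was also lost without all libraries of WT-220, WT-221, 154Q-69, or 154Q-76. The interaction call of Hsp90ab1 was lost without those of WT-221 or 154Q-69. In 154Q-AXH mice, Dnajb5 was the 1 member called, where 1.33% of all genes were. For Hspa1b, a difference between regions was not called in 154Q (adjusted p = 0.262) or 154Q-AXH mice (adjusted p = 1). Dnaja1, Dnajb1, Dnajb2, Dnajb4, and Dnajb6, a suppressor of polyglutamine aggregation, were not called in either genotype. Dnajb1 lay below WT in all 10 comparisons (-0.23 to -0.02).

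The small heat shock proteins hold unfolded proteins until HSP70 refolds them and are most abundant in glia and muscle. Cryab fell in the cerebellum of both mutants. It had 82.8, 81.6, 73.5, and 79.8 CPM in WT mice, 62.0, 69.2, 66.3, and 70.2 CPM in 154Q mice, and 68.7, 68.9, 70.9, and 67.9 CPM in 154Q-AXH mice. All 8 mutant libraries lay below WT, and Cryab fell by 0.25 on the log2 scale (SE 0.05, adjusted p = 0.00609) and by 0.20 (SE 0.05, adjusted p = 0.0412). In 154Q-AXH mice, the call of Cryab was lost in 9 of the 12 fits without 1 library, all but those without WT-220, 154Q-69, or 154Q-76 (adjusted p from 0.0512 to 0.116). Against WT mice of the same series, Cryab was at -0.30 in 154Q mice (adjusted p = 0.0314) and at -0.15 in 154Q-AXH mice (adjusted p = 0.05001), where the call was lost. Of the exon bases of Cryab, 17.04% overlap Hspb2 on the other strand. The oligodendrocyte markers (8 genes) in the same cerebellar libraries summed to 6360 to 7560 CPM in WT, 6097 to 6872 CPM in 154Q, and 5377 to 6665 CPM in 154Q-AXH mice. The astrocyte markers summed to 3378 to 3910, 3193 to 3394, and 3364 to 3421 CPM in the same order. The 5 cerebellar markers, with 4019 to 4235, 3329 to 3624, and 3622 to 3826 CPM, were lower in both mutants without overlap. The part of these lists in the changes of Hspa1b, Hspa2, Bag3, Cryab, Hspa5, and Hsp90b1 in the cerebellum was not tested.

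Cryab in the striatum (-0.62, SE 0.17, adjusted p = 0.0543) and cortex (-0.29, SE 0.09, adjusted p = 0.054) of 154Q mice lay just outside the threshold. In those striatal libraries, the oligodendrocyte markers summed to 10044 to 16683 CPM in WT and 7284 to 8816 CPM in 154Q mice, without overlap, and in the cortex to 6080 to 7533 and 4826 to 6496 CPM. Their part in the values of Cryab was not tested. Hspb1 and Hspb8 were not called with all libraries. Without the mixed hippocampal library of 154Q-76, Hspb1 was called in the 154Q hippocampus, at -0.73 (adjusted p = 0.0417) against -0.28 with it. With all libraries, their largest log2 fold changes were -0.75 for Hspb1 in the striatum (SE 0.28, adjusted p = 0.133) and -0.40 for Hspb8 in the striatum (SE 0.12, adjusted p = 0.0674), both in 154Q mice. Hspb1 varied widely among WT mice, with 5.27, 3.81, 12.1, and 7.71 CPM in the striatum. WT mice of the higher series had 1.12 to 2.18 times the Hspb1 of the lower series over the 5 regions. The 3 mitochondrial chaperones, Hspa9, Hspd1, and Hspe1, were not called, and Hspa9 and Hspd1 lay between -0.07 and 0.11 in all 10 comparisons.

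The 2 main ER chaperones, Hspa5 (BiP, the master chaperone of the ER) and Hsp90b1 (GRP94), were lower in the cerebellum. WT mice had 328, 288, 426, and 545 CPM of Hspa5 there, and 154Q mice had 257, 280, 277, and 258 CPM. Hspa5 fell by 0.57 on the log2 scale in 154Q mice (SE 0.15, adjusted p = 0.0479). 154Q-AXH mice had 258, 276, 268, and 350 CPM, with a log2 fold change of -0.46 (SE 0.15, adjusted p = 0.149). The call of Hspa5 was lost in 9 of the 12 fits without 1 library, all but those without WT-70, WT-77, or 154Q-AXH-218 (adjusted p from 0.061 to 0.12). The highest values were those of WT-220 and WT-221, and both WT-70 and WT-77 lay within the range of the 154Q-AXH mice.

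Hsp90b1 showed the same order in the cerebellum. WT mice had 248, 249, 310, and 319 CPM, 154Q mice 223, 225, 232, and 227 CPM, and 154Q-AXH mice 230, 240, 228, and 266 CPM. Hsp90b1 fell by 0.31 on the log2 scale in 154Q mice (SE 0.08, adjusted p = 0.0319) and had a log2 fold change of -0.22 in 154Q-AXH mice (SE 0.08, adjusted p = 0.171). The call of Hsp90b1 was lost without WT-220, WT-221, or any 1 of the 4 154Q mice (adjusted p from 0.0654 to 0.0919). Of the exon bases of Hsp90b1, 15.67% overlap other gene models.

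In the hippocampus, Hspa5 had 259, 269, 332, and 358 CPM in WT, 220, 235, 253, and 231 CPM in 154Q, and 260, 251, 225, and 257 CPM in 154Q-AXH mice. The 154Q mice lay below WT, and Hspa5 fell by 0.37 on the log2 scale there (SE 0.10, adjusted p = 0.0434), a call lost without 154Q-76 (-0.37, adjusted p = 0.0588). It was also lost without WT-220, WT-221, 154Q-69, 154Q-71, 154Q-AXH-207, or 154Q-AXH-209 (adjusted p from 0.0505 to 0.113), and against WT mice of the same series (-0.17, adjusted p = 0.422). Xbp1, the transcription factor spliced by IRE1, had a log2 fold change of -0.48 in the cerebellum of 154Q mice (SE 0.14, adjusted p = 0.0607) and was not called. Dnajb9, an ER J-domain protein, was not called with all libraries, and was called in the 154Q hippocampus without 154Q-76 (-0.19, adjusted p = 0.0388).

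These ER genes depended on which WT mice served as controls. Over the 5 regions, WT mice of the higher series had 1.17 to 1.58 times the Hspa5, 1.03 to 1.27 times the Hsp90b1, and 1.13 to 1.49 times the Xbp1 of WT mice of the lower series. Against the lower-series WT mice, Hspa5 was at -0.20 (adjusted p = 0.181) and Hsp90b1 at -0.13 (adjusted p = 0.17) in the cerebellum of 154Q mice. Against the higher-series WT mice, Hspa5 fell by 0.76 (adjusted p = 0.00177), Hsp90b1 by 0.38 (adjusted p = 0.00153), and Xbp1 by 0.59 (adjusted p = 0.00279) in 154Q-AXH mice. With such WT mice, 2 members were called in the 154Q cerebellum, where 1.76% of all genes were called, and 13 in the 154Q-AXH cerebellum, where 11.7% were. Whether the ER chaperones are lower with the mutant alleles or higher in WT-220 and WT-221 cannot be told apart with 2 WT mice per series.

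**Figure D4:**
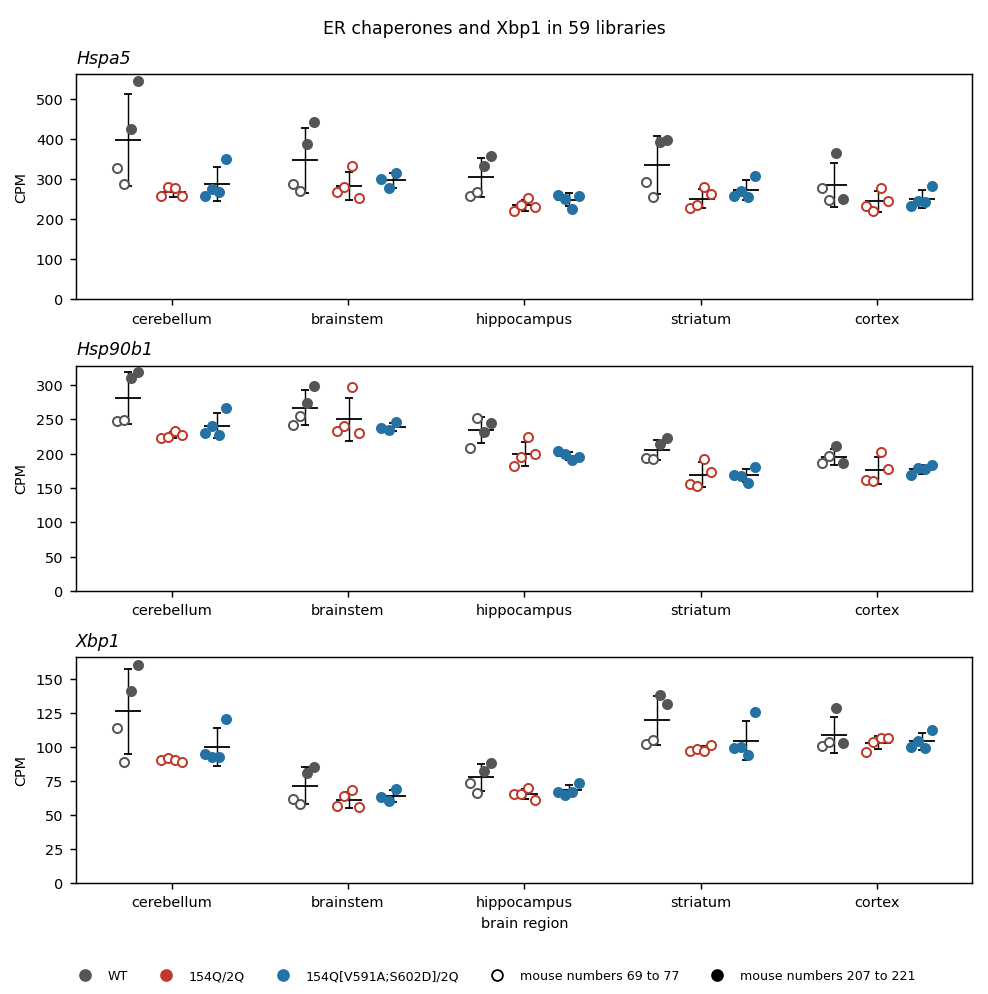
CPM of Hspa5, Hsp90b1 and Xbp1 in each of 59 libraries, by region and genotype, with a bar at the mean and its SD. Open points are mice of the lower number series and filled points those of the higher. For Hspa5, WT-220 and WT-221 lie above the other WT mice in 4 of the 5 regions, and the 154Q mice lie near WT-70 and WT-77.

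Atf4 and Ddit3 are transcription factors of the PERK arm and of the integrated stress response, and Atf4 fell in the cortex and Ddit3 in the hippocampus and cortex of both mutants. In the cortex, WT mice had 169, 185, 201, and 180 CPM of Atf4, 154Q mice 136, 145, 156, and 152 CPM, and 154Q-AXH mice 157, 150, 146, and 150 CPM. All 8 mutant libraries lay below WT. Atf4 fell by 0.32 on the log2 scale (SE 0.06, adjusted p = 0.00181) and by 0.29 (SE 0.06, adjusted p = 0.00562). It also fell by 0.34 in the hippocampus of 154Q-AXH mice (SE 0.07, adjusted p = 0.0408), a call lost in 10 of the 12 fits without 1 library, all but those without 154Q-69 or 154Q-76 (adjusted p from 0.0509 to 0.108). Atf4 was not called in the 154Q hippocampus (-0.25, SE 0.07, adjusted p = 0.0573), apart from the fit without 154Q-76 (-0.29, adjusted p = 0.0439), or in the striatum of 154Q (-0.26, SE 0.12, adjusted p = 0.218) and 154Q-AXH mice (-0.26, SE 0.12, adjusted p = 0.427).

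Against WT mice of the same series, Atf4 in the cortex was at -0.27 in 154Q mice (adjusted p = 0.143) and at -0.34 in 154Q-AXH mice (adjusted p = 0.00539), and in the hippocampus of 154Q-AXH mice at -0.29 (adjusted p = 0.153, and 0.186 with the covariate). A difference between regions was not called for Atf4 (adjusted p = 0.0801 in 154Q and 0.0834 in 154Q-AXH mice) or Ddit3 (adjusted p = 0.0571 and 0.404). In the cerebellum and brainstem, Atf4 lay between -0.02 and 0.03.

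Ddit3, which encodes CHOP and promotes cell death after prolonged ER stress, fell in the hippocampus of both mutants. Its values there were tight, with 12.4, 12.1, 12.1, and 12.3 CPM in WT mice, 9.92, 9.68, 9.94, and 10.0 CPM in 154Q mice, and 10.1, 10.4, 9.36, and 10.6 CPM in 154Q-AXH mice. No mutant library reached the WT range, and Ddit3 fell by 0.30 on the log2 scale (SE 0.06, adjusted p = 0.011) and by 0.27 (SE 0.06, adjusted p = 0.0441). In the cortex, it fell by 0.35 (SE 0.08, adjusted p = 0.0157) and by 0.33 (SE 0.08, adjusted p = 0.0263), and in the striatum of 154Q mice by 0.61 (SE 0.13, adjusted p = 0.0183). In the striatum of 154Q-AXH mice, Ddit3 was at -0.35 and not called (SE 0.13, adjusted p = 0.256). The hippocampal call in 154Q-AXH mice was lost in 11 of the 12 fits without 1 library, all but that without 154Q-76 (adjusted p from 0.0518 to 0.132). In the cortex, the call of Ddit3 was lost without 154Q-69 in 154Q mice (adjusted p = 0.0525), and without WT-77, WT-220, WT-221, 154Q-AXH-209, or 154Q-AXH-218 in 154Q-AXH mice (adjusted p from 0.0568 to 0.0891). The striatal call was lost without 154Q-71 or 154Q-76 (adjusted p = 0.0679 and 0.0626).

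In 154Q mice, the striatal change of Ddit3 against WT mice of the same series was -0.41 (adjusted p = 0.121). The other 4 calls of Ddit3 were lost against those mice as well, at -0.31 in the 154Q hippocampus (adjusted p = 0.213), -0.27 in the 154Q-AXH hippocampus (adjusted p = 0.156), -0.36 in the 154Q cortex (adjusted p = 0.189), and -0.32 in the 154Q-AXH cortex (adjusted p = 0.0926). With the series as a covariate, the 154Q hippocampal call of Ddit3 held (adjusted p = 0.0432) and its other 4 calls were lost. Read pairs where Ddit3 overlaps other gene models (10.86% of its exon bases) may have been left uncounted. Sqstm1 (p62), an autophagy receptor for ubiquitinated protein, was not called, with log2 fold changes from 0.01 to 0.09.

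**Figure D5:**
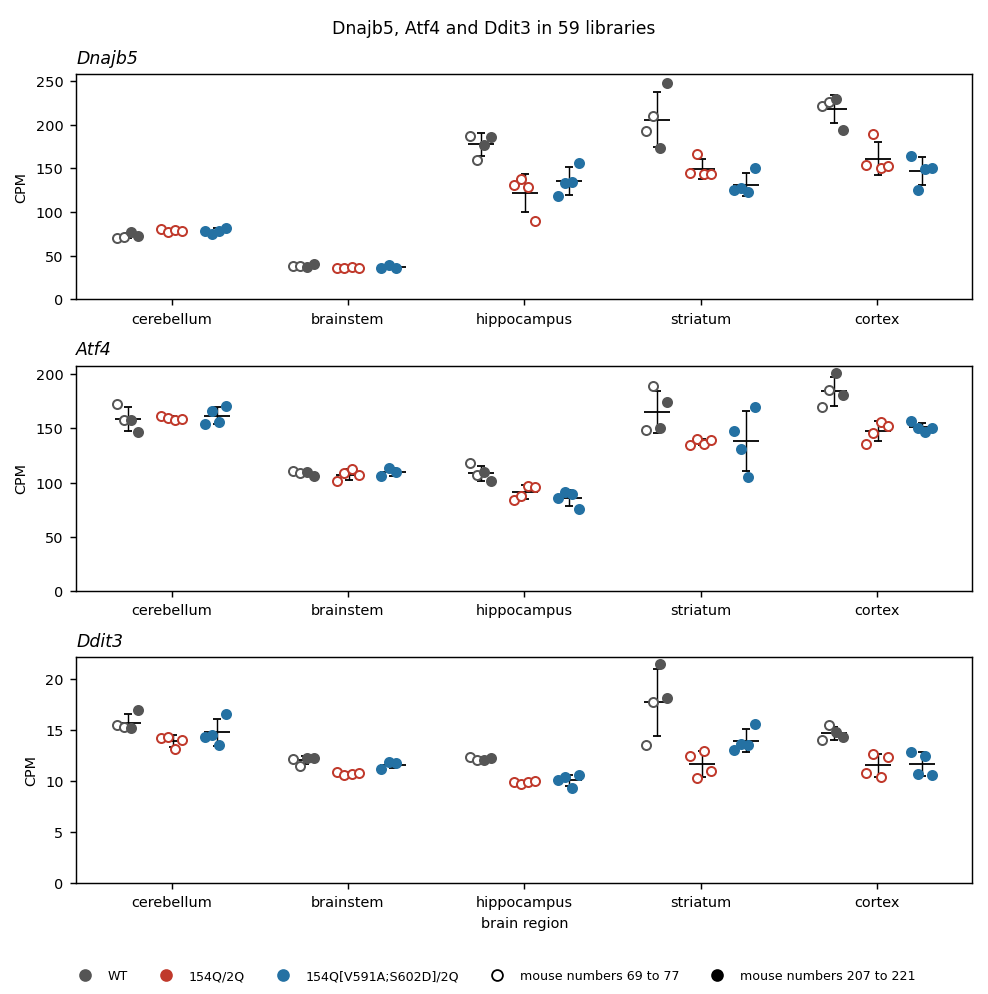
CPM of Dnajb5, Atf4 and Ddit3 in each of 59 libraries, by region and genotype, with a bar at the mean and its SD. Open points are mice of the lower number series and filled points those of the higher. In the cortex and hippocampus all mutant libraries lie below the WT libraries for all 3 genes, and in the cerebellum the groups lie close together or overlap.

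The 2 mutant genotypes were then compared directly, which asks what the loss of CIC binding changes. No member was called in any region by edgeR, which called 0.0335% of all genes in the cerebellum and 0% in each of the other regions. DESeq2 called no member either, and its share of all genes was 0.752% in the cerebellum, 0.259% in the hippocampus, 0.154% in the brainstem, and 0% for both striatum and cortex. At an unadjusted p below 0.05 there were 6 members in the hippocampus (17.6%, against 11.0% of all genes), and 3 without the mixed library of 154Q-76. There were 2 each in the cerebellum and striatum (5.88%, against 7.598% and 3.26% of all genes) and 1 each in the brainstem and cortex (2.94%, against 5.35% and 6.67%). Hspa1b was higher in 154Q-AXH than in 154Q mice by 0.56 on the log2 scale in the hippocampus (95% interval 0.21 to 0.92, adjusted p = 0.422) and by 0.63 in the striatum (0.05 to 1.21, adjusted p = 0.945). In the cerebellum and cortex, the intervals of Hspa1b, -0.14 to 0.36 and -0.12 to 0.77, reached across 0. For Dnajb5 the cortical difference was -0.13 (-0.32 to 0.06) and for Atf4 0.03 (-0.09 to 0.15). All 154Q mice and all 154Q-AXH mice come from different number series, so series and genotype cannot be told apart in this comparison.

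Other genes of the same pathways were followed in 6 lists of 97 genes. Of these, 1 was called higher and 5 lower in the cerebellum of 154Q mice (6.19% called, against 5.22% of all genes), 9 lower in the hippocampus (9.28%, against 5.91%), 5 lower in the striatum (5.15%, against 5.69%), 3 higher and 5 lower in the cortex (8.25%, against 11.1%), and 0 in the brainstem (edgeR, with 10 at an unadjusted p below 0.05). In 154Q-AXH mice, 1 was lower in each of the cerebellum, hippocampus, and striatum (1.03%, against 2.21%, 1.3%, and 1.35% of all genes), 3 were higher and 1 lower in the cortex (4.12%, against 7.15%), and 0 were called in the brainstem (6 at an unadjusted p below 0.05). Calls of these lists are given with all libraries, among them the mixed one of 154Q-76, and with WT mice of both number series. How far they depend on the WT series, as Hspa5, Hsp90b1, and Xbp1 did, is not given.

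The list of the ER unfolded protein response (18 genes) held 4 genes called lower in each of the 154Q cerebellum, hippocampus, and striatum, and 1 in the cortex. In 154Q-AXH mice it held 1 called lower in each of the striatum and cortex. In 154Q mice, Sdf2l1, a BiP cofactor, fell by 1.02 on the log2 scale in the cerebellum (SE 0.20, adjusted p = 0.00644), by 0.60 in the hippocampus (SE 0.13, adjusted p = 0.0214), and by 0.97 in the striatum (SE 0.17, adjusted p = 0.00725). Atf6, the ER stress sensor that acts through the element printed above, fell by 0.46 in the cortex of 154Q mice (SE 0.09, adjusted p = 0.00344) and by 0.41 in that of 154Q-AXH mice (SE 0.09, adjusted p = 0.0104). In the cerebellum, Atf6 lay at -0.03 and 0.00 in the 2 genotypes.

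Among the other HSP70 and J-domain genes (22 genes), 1 was called higher and 1 lower in the 154Q cerebellum, and 2 higher and 2 lower in the cortex. A further 2 were lower in the 154Q hippocampus and 1 in the striatum, and in 154Q-AXH mice 1 was lower in the hippocampus and 2 were higher in the cortex. Bag2, an HSP70 exchange factor that inhibits Stub1, rose by 0.54 in the cortex of 154Q-AXH mice (SE 0.09, adjusted p = 0.00111), by 0.47 in that of 154Q mice (SE 0.08, adjusted p = 0.00243), and by 0.25 in the cerebellum of 154Q mice (SE 0.06, adjusted p = 0.0311). Dnajc27 rose by 0.22 (SE 0.04, adjusted p = 0.00226) and 0.19 (SE 0.04, adjusted p = 0.00474) in the cortex of the 154Q-AXH and 154Q mice.

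Of the ATF4 target and integrated stress response list (16 genes), Cebpb fell by 1.17 on the log2 scale (SE 0.17, adjusted p = 0.00271) and Atf3 by 1.00 (SE 0.21, adjusted p = 0.0156) in the hippocampus of 154Q mice, and 1 gene of the list was lower in each of the 154Q cortex and the 154Q-AXH cerebellum. Both Cebpb and Atf3 are also induced by neuronal activity and inflammation. Among the other HSP90 cochaperones and HSF regulators (13 genes), Fkbp5, a glucocorticoid-responsive gene, fell by 0.72 in the hippocampus (SE 0.15, adjusted p = 0.0163), and Ppp5c by 0.15 in the cortex (SE 0.04, adjusted p = 0.0447), both in 154Q mice. Optn, an autophagy receptor, was the 1 gene called of the ubiquitin and autophagy list (14 genes), at 0.28 (SE 0.08, adjusted p = 0.0433) and 0.30 (SE 0.08, adjusted p = 0.0403) in the cortex of the 154Q and 154Q-AXH mice. None of the 14 chaperonin TRiC and prefoldin genes, which fold actin and tubulin, was called by edgeR in the 10 comparisons, with 0 to 5 at an unadjusted p below 0.05, and their median log2 fold change lay between 0.02 and 0.11.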

How the data were processed

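RNA from 5 brain regions was sequenced as read pairs. After trimming (Trimmomatic 0.36) and alignment to GRCm38.p6 (STAR 2.7.2d), the authors deposited raw counts per gene for each library, with read pairs that map to several places left out (3.88% to 5.51%). From 75.3% to 81.2% of read pairs were counted. The unstranded count column was read, so antisense overlaps cannot be separated. Overlaps with other gene models, on either strand, also covered 42.33% of the exon bases of Stub1, 17.28% of Sqstm1, and 10.79% of Dnaja1. Positions and exon lengths come from GENCODE M21. The summary lines and a line with a human gene ID (at most 53 counts in a library) were left out.

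Each region was fitted in 1 model of the 3 genotypes with edgeR 4.0.16 in R 4.3.3 (filterByExpr with a minimum count of 10, TMM, glmQLFit, glmQLFTest), with Benjamini-Hochberg adjustment over all genes tested and a threshold of 0.05. All adjusted p values are from this test unless DESeq2 (1.42.0) is named. Region differences and interactions came from 1 fit of all 59 libraries. CPM use TMM-scaled library sizes. The scripts were tested on simulated data. The mouse numbers recur across the regions, and deviations of the same mouse in 2 regions correlated at a median of 0.0194, against -0.00315 for different mice, over all genes. Above 0.1 lay 28 of 116 same-mouse pairs (highest 0.325) and 35 of 348 pairs of different mice (highest 0.236). The main joint fit held no term for the mouse. Since the regions come from the same mice, a change seen in several regions is not repeated in separate animals. The replicates of a group are separate mice.

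The members, the pathway lists, and the marker lists were chosen with earlier results of these data known. All members are named. Library values are given for members called against WT, in the region of their smallest adjusted p, and at most 2 called genes of each pathway list are named by adjusted p. Marker lists were summed as CPM without a test, and calls are those of their single genes. Microglial markers (6 genes) were called in 0 of the 10 comparisons with WT and endothelial markers (4 genes) in 1, as 1 gene lower in the 154Q striatum. Choroid plexus markers (6 genes) were called in 0. Alternatives were DESeq2, its size factors, no filter on low counts, fits of 2 genotypes, the number series as a covariate or through WT mice of 1 series, exchange or removal of the cortical pair, mouse as a block in the joint fit, leaving out each library, and, added after seeing the data, Hspa1a and Hspa1b summed.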

Additional observations from a re-analysis of the deposited data

Results flagged for a closer look

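The cortical Dnajb5 level of 154Q mouse 71 was 189 CPM, far from the 150 to 154 CPM of the other 3 mice of its group. Of 69 groups of 4 libraries examined for such a gap, chance alone gives about 1 in 20. The change of Dnajb5 against WT differed between regions in both mutants (edgeR interaction test, adjusted p = 0.0014 in 154Q and 0.000718 in 154Q-AXH mice). The same test separated the regions for Hspa2 (adjusted p = 0.0184) and Hsp90ab1 (adjusted p = 0.00775) in 154Q mice. The calls of Hspa2 and Hsp90ab1 were lost in some fits without 1 mouse, and that of Hspa2 also without the 4 libraries in doubt.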

How the results depend on the processing

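The members called changed as follows under other settings, with smaller relative shifts in either direction left out. In the cerebellum, the 6 calls of 154Q mice became 3 in a fit of the 2 genotypes, 3 with the number series as a covariate, and 2 with WT mice of 1 series. The 2 of 154Q-AXH mice became 4 with DESeq2, 1 without a filter on low counts, 0 in a fit of the 2 genotypes, 9 with the covariate, 13 with WT mice of 1 series, and 1 with Hspa1a and Hspa1b summed. In the brainstem, DESeq2 called 2 in 154Q mice, and the covariate and WT mice of 1 series gave 1 each in 154Q-AXH mice. In the hippocampus, the covariate gave 3 and WT mice of 1 series 1 in 154Q mice, and DESeq2 gave 7 and no filter 1 in 154Q-AXH mice. In the striatum, DESeq2 gave 7 and the covariate 0 in 154Q mice, while DESeq2 gave 3, a fit of the 2 genotypes 0, the covariate 3, and WT mice of 1 series 0 in 154Q-AXH mice. In the cortex, the covariate gave 3 and WT mice of 1 series 1 in 154Q mice, and in 154Q-AXH mice the covariate, WT mice of 1 series, and the cortical pair left out gave 3 each. DESeq2 called 5 and 2 interactions. WT mice of 1 series leave fewer samples, and the cause of the other shifts was not tested. The share of all genes called moved between settings as well. In the cerebellum with WT mice of 1 series, it was 1.76% in 154Q and 11.7% in 154Q-AXH mice, against 5.22% and 2.21%. For most other settings this share is not given, so the counts are not read as a result about the members. Of the 30 calls, 0 reversed and 6 held under every setting, with 30 kept with DESeq2, 27 without a filter, 22 in a fit of the 2 genotypes, 14 with the covariate, and 10 with WT mice of 1 series.

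Leaving out 1 library gave, in 154Q mice, 2 to 8 calls in the cerebellum, 0 to 1 in the brainstem, 3 to 7 in the hippocampus, 1 to 4 in the striatum, 4 to 9 in the cortex, and 1 to 5 interactions. In 154Q-AXH mice it gave 0 to 4, 0 to 0, 1 to 5, 1 to 2, 3 to 6, and 1 to 2, respectively. For the interactions, all libraries of 1 mouse were left out at a time. With the mouse as a replicate block in the joint fit, 3 and 1 interactions and 34 region differences were called. The share of all genes called in each of these fits is not given. Within a region each mouse gives 1 library, so no block could be fitted there. The inducible HSP70 genes rest on 103 to 1130 counts a library.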
